A study of Homo sapiens with 6 samples.

Results

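The mature products of the miR-28, miR-151 and miR-708 precursors were examined in Huh7 cells, a human hepatoma cell line, with and without forced expression of hsa_circ_0098181. They were chosen by name from the deposited miRNA table, and 6 of its 2588 rows were members, namely hsa-miR-28-5p, hsa-miR-28-3p, hsa-miR-151a-5p, hsa-miR-151a-3p, hsa-miR-151b and hsa-miR-708-5p. hsa_circ_0098181 is a circular RNA from the SOX5 gene, and the study asked which miRNAs it affects in liver cancer cells. In the overexpression group (3 samples) Huh7 cells received a plasmid with hsa_circ_0098181, and in the control group (3 samples) they received the control plasmid. Cells of both groups were collected 48 h after a transient transfection. All samples came from a single cell line, and the labels do not say whether the replicates were separate cultures, so that p-values measure the spread between these samples, which may be technical.

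A miRNA precursor is a hairpin whose arms each yield a mature strand, named 5p and 3p, and a mature strand finds its targets mainly through its seed (bases 2 to 8). Strands that share a seed are expected to share targets, while the opposite arms of a hairpin carry different seeds. miR-28-5p and miR-708-5p are usually placed in the same seed family, and miR-151a is a relative whose 5p arm is closely similar but shifted. The annotated miR-151b strand is contained within miR-151a-5p. miR-151a and its host gene PTK2, which encodes focal adhesion kinase, have been linked to the migration of liver cancer cells.

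The RefSeq mature sequences (GRCh38.p14) of miR-28-3p and miR-708-5p are given here, since they carry the abundant strand and the seed of the family, together with the other arm of miR-708 and another strand with that seed. They are written 5′ to 3′ with the seed in capitals. RefSeq sequences were matched for 2 of the 6 members.
hsa-miR-28-3p: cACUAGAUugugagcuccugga
hsa-miR-708-5p: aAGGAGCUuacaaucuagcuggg
hsa-miR-708-3p: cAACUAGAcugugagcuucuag
hsa-miR-3139: uAGGAGCUcaacagaugccuguu

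The seed of miR-708-5p, AGGAGCU, was searched in 2370 RefSeq mature strands, which did not include miR-28-5p, and was found in miR-708-5p and miR-3139 (2 of 2370, 0.0844%). Its reverse complement, AGCUCCU, read on the strand itself, was found at bases 13 to 19 of miR-28-3p and in 3 of the 2370 strands (0.127%). miR-28-3p and miR-708-3p had different seeds but shared an 8-base run, UGUGAGCU, which starts at base 9 of miR-28-3p and at base 10 of miR-708-3p. The mature sequences of miR-28-5p, miR-151a-5p, miR-151a-3p and miR-151b are not shown here.

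In GENCODE release 29 (GRCh38), each precursor lies within an intron of a protein-coding gene. MIR28 is on the plus strand of chromosome 3 (188688781 to 188688866) inside LPP, which encodes a cell adhesion protein and runs in the same direction (188153284 to 188890671). MIR151A is on the minus strand of chromosome 8 (140732564 to 140732653) inside PTK2 (140657900 to 141002216), also in the same direction. MIR708 is on the minus strand of chromosome 11 (79402022 to 79402109) inside TENM4, a teneurin gene (78652831 to 79440948). MIR151B is on the minus strand of chromosome 14 (100109419 to 100109514) and is antisense to its surrounding gene EVL.

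The libraries held 7144798 to 10786295 counts each, of which each count is a read assigned to a mature miRNA. The most abundant miRNA was the hepatocyte miRNA miR-122-5p, at 306227 to 338897 TPM, where TPM is the count divided by the total of its library and scaled to a common total. The 4 liver miRNAs checked (miR-122-5p, miR-192-5p, miR-194-5p and miR-148a-3p) summed to 422224 to 434247 TPM in the overexpression group and 403377 to 435127 TPM in the control group. Markers of muscle (3) and of blood cells (3) summed to at most 3.80 TPM, those of neurons (2) to between 98.6 and 149 TPM and those of stroma (2) to at most 99.5 TPM. The stromal sum was lower in the overexpression group (81.6 to 88.7 TPM) than in the control group (90.5 to 99.5 TPM). miR-126-3p, the only endothelial marker checked, was higher (3186 to 3271 against 3053 to 3165 TPM). Of the 552 miRNAs tested below, 16.3% lay wholly lower in TPM and 1.99% wholly higher. In the TMM-scaled comparison below (not in TPM), the log2 fold changes were -0.02 for miR-143-3p and -0.30 for miR-145-5p, the stromal markers. For miR-126-3p it was 0.16. The part of these differences in the results was not tested. Control replicate 3 stood apart from the other controls, with a median absolute log2 difference of 0.21 from each (152 miRNAs). These other controls differed from each other by 0.049, less than any other pair of libraries. Overexpression samples differed from each other by 0.078 to 0.11. Control replicate 3 was at 0.12 to 0.19 from them, and the other controls were at 0.13 to 0.19. Results that rest on control replicate 3 are given with and without it. No pair of replicates agreed within counting noise (chi-square over degrees of freedom 17.6 to 162).

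In the counts as deposited, the family was represented almost entirely by its 3p strands. miR-28-3p and miR-151a-3p together held 97.9% to 98.7% of the counts of the 6 members in every library. This share includes the rows of miR-151a-5p and miR-151b, whose counts are uncertain for the reason given below. A read covers a whole short mature strand, so that levels were compared without a correction for length. They are levels of amplified reads, which are not independent molecules.

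hsa-miR-151a-3p was at 1812, 1757 and 1718 TPM in overexpression replicates 1 to 3 and at 1568, 1579 and 1691 TPM in control replicates 1 to 3. hsa-miR-28-3p was at 1733, 1625 and 1763 TPM with hsa_circ_0098181 and at 1543, 1629 and 1722 TPM with the control plasmid. Although they come from different chromosomes, these strands had nearly the same level, and ranked 49 and 50 of the table by mean TPM. The ratio of miR-151a-3p to miR-28-3p was between 0.970 and 1.08 and was above 1 in 3 of the 6 libraries, so that their order was not larger than the spread.

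hsa-miR-28-5p, which carries the family seed, came next at 56.0, 41.4 and 53.1 TPM with hsa_circ_0098181 and 56.1, 61.4 and 69.7 TPM with the control plasmid (rank 183). hsa-miR-151a-5p followed at 1.75, 2.36 and 2.65 TPM with hsa_circ_0098181 and 2.32, 2.19 and 3.78 TPM with the control plasmid, from 14 to 27 counts in a library (rank 452). Each of these strands was below the one before it in all 6 libraries.

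hsa-miR-708-5p was near the limit of detection, with 6, 8 and 4 counts with hsa_circ_0098181 and 13, 7 and 7 counts with the control plasmid (0.483 to 1.21 TPM). Its other arm, hsa-miR-708-3p, had 1, 0 and 0 counts with hsa_circ_0098181 and 1, 2 and 0 counts with the control plasmid. hsa-miR-151b had 0 counts in all 6 libraries, which allows up to 3 counts, or 0.278 to 0.420 TPM depending on the library. These limits cover counting error only. How reads that match both miR-151b and miR-151a-5p were assigned is not given in the sources used here, so that the counts of both rows are uncertain, and the part of this step in the low level of miR-151a-5p was not tested.

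**Figure D1:**
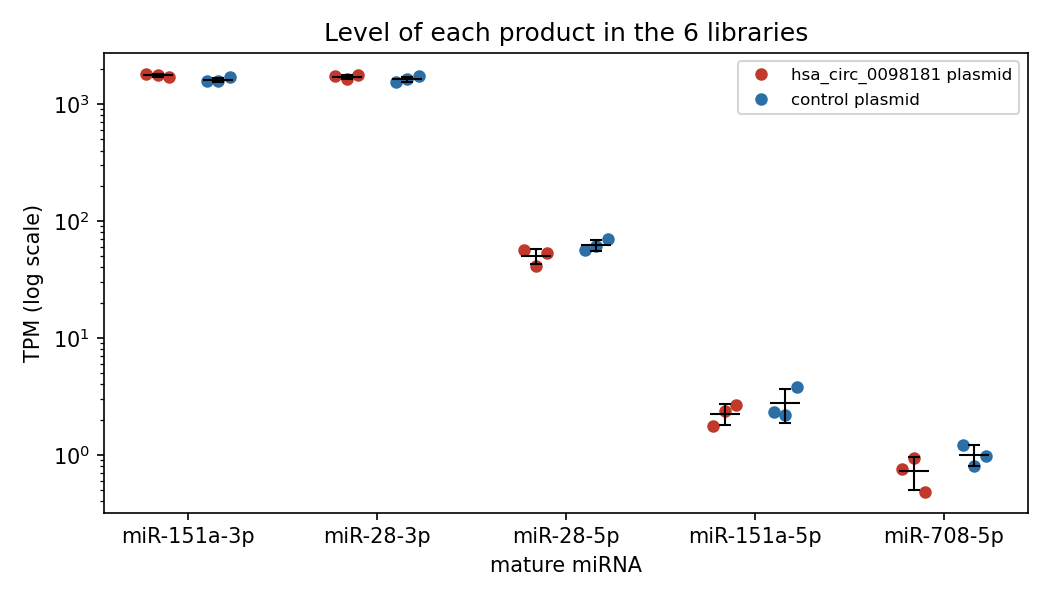
TPM (log axis) of the 5 products with any count, with a point for each library and the mean ± SD of each group (n = 3) in black. The 3p strands of miR-151a and miR-28 lie together at 1543 to 1812 TPM, far above miR-28-5p (41.4 to 69.7), miR-151a-5p (1.75 to 3.78) and miR-708-5p (0.483 to 1.21), and miR-151b is not drawn because it was at 0 in every library.

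The overexpression group was compared with the control group to ask whether hsa_circ_0098181 altered these miRNAs. The 3p strands of both abundant precursors were slightly higher and the 5p strands slightly lower with hsa_circ_0098181, but none of the 4 members with enough counts to be tested passed the threshold (Benjamini-Hochberg adjusted p under 0.05 in the quasi-likelihood test of edgeR). Over all 552 miRNAs tested, 0 passed as well (0%), 50 had an unadjusted p under 0.05 (9.06%), and 24 of these were higher with hsa_circ_0098181 (4.35%) and 26 lower. With the library size alone as the scale, this split became 1 higher and 69 lower. DESeq2 also called 0, with 41 at an unadjusted p under 0.05. Among the 4 tested members, 2 were higher and 2 lower, with a median log2 fold change of 0.02 against 0.0038 for all miRNAs tested. Levels for this comparison were scaled by edgeR's TMM factors, which correct the library size for composition, and are given as CPM, on the same scale as TPM.

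miR-151a-3p had the smallest unadjusted p of the members. Its TMM-scaled level was 1819, 1909 and 1777 CPM with hsa_circ_0098181 and 1561, 1531 and 1555 CPM with the control plasmid. Every overexpression sample was above every control sample. The group means were 1835 ± 67.8 and 1549 ± 15.9 CPM (SD, n = 3), a 1.18-fold difference. The fitted log2 fold change was 0.24 with a standard error of 0.081 and a 95% confidence interval of 0.07 to 0.42, with an unadjusted p of 0.00933 and an adjusted p of 0.314 from edgeR. In TPM the groups did not overlap either, which held for 11 of the 552 miRNAs in this direction (1.99%), against 8.88% after TMM scaling.

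miR-28-3p was at 1740, 1765 and 1823 CPM with hsa_circ_0098181 and at 1536, 1579 and 1584 CPM with the control plasmid. The scaled levels of the groups did not overlap, as for 8.88% of the miRNAs tested in this direction, whereas the TPM values did. In TPM, control replicates 2 and 3 (1629 and 1722) were above overexpression replicate 2 (1625). The means were 1776 ± 42.5 and 1566 ± 26.2 CPM (SD, n = 3), a log2 fold change of 0.18 with a standard error of 0.080 (95% confidence interval 0.01 to 0.35, unadjusted p = 0.0402, adjusted p = 0.507 from edgeR). Of the 4 tested members, these 3p strands were the 2 with an unadjusted p under 0.05 from edgeR, against 9.06% of all 552 miRNAs tested. With the library size alone, which moved the median of all miRNAs tested to -0.11, the log2 fold change was 0.13 for miR-151a-3p and 0.065 for miR-28-3p.

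miR-28-5p showed the opposite sign to the strand on the other arm of its hairpin. It was at 56.2, 45.0 and 54.9 CPM with hsa_circ_0098181 and at 55.8, 59.5 and 64.1 CPM with the control plasmid. Overexpression replicate 1 lay just above control replicate 1, so that the groups overlapped after scaling. In TPM they did not overlap, but the gap was that between 56.0 and 56.1 TPM, and 16.3% of the miRNAs tested lay wholly lower in TPM. On the log2 scale it differed by -0.20 with a standard error of 0.12 (95% confidence interval -0.45 to 0.05, adjusted p = 0.598 from edgeR), and by -0.31 with the library size alone.

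miR-151a-5p, with few counts, was at 1.76, 2.57 and 2.74 CPM with hsa_circ_0098181 and at 2.31, 2.12 and 3.47 CPM with the control plasmid, and the groups overlapped. Its log2 fold change was -0.14 (standard error 0.31, adjusted p = 0.871 from edgeR). The 95% confidence interval, from -0.82 to 0.54, was wide and covered changes in both directions, so that the direction of any change was undecided at this depth.

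miR-708-5p did not pass the filter on low counts. Its mean was 0.726 ± 0.232 TPM in the overexpression group and 0.997 ± 0.20 TPM in the control group (SD, n = 3), and the groups overlapped. In a fit without the filter its log2 fold change was -0.37 (standard error 0.55, adjusted p = 0.828 from edgeR). miR-3139, which shares its seed, had 1, 6 and 4 counts with hsa_circ_0098181 and 9, 10 and 9 counts with the control plasmid. All overexpression samples were lower, in counts and in TPM. Of the miRNAs that passed the filter, 16.3% also lay wholly lower in TPM, but miR-3139 did not pass it and is not among them. At this depth the log2 fold change of miR-3139, -1.14 without the filter, had a standard error of 0.61 (adjusted p = 0.775 from edgeR).

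These values were compared with and without control replicate 3. Without that library the log2 fold change of miR-151a-3p was 0.23 (standard error 0.070) and passed the threshold (adjusted p = 0.0250 from edgeR), with a smaller standard error and a difference no larger than with all 6 libraries. In this fit 56 of 565 miRNAs passed (9.91%), of which 18 were higher with hsa_circ_0098181 (3.19%), and 1 of the 4 tested members was among them. The controls left in this fit were the closest pair of all libraries (median absolute log2 difference 0.049). miR-28-3p was at 0.17 (adjusted p = 0.122 from edgeR) and miR-28-5p at -0.16 (adjusted p = 0.401 from edgeR). When any other library was left out, the adjusted p of miR-151a-3p from edgeR was between 0.545 and 0.847. The sign of miR-151a-5p was not stable, since its log2 fold change turned to 0.067 without control replicate 3 and to 0.027 when overexpression replicate 1 was left out.

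Scaling acts on all miRNAs of a library alike, and the balance of the arms within a library does not depend on it. The log2 ratio of miR-28-5p to miR-28-3p was -4.95, -5.29 and -5.05 with hsa_circ_0098181 and -4.78, -4.73 and -4.63 with the control plasmid. The 5p share was lower in each overexpression sample than in each control sample, with 24.7 to 39.1 reads of the 3p strand for each read of the 5p strand over the 6 libraries. The means were -5.10 ± 0.17 and -4.71 ± 0.079 (SD, n = 3), a difference of -0.39. The two-sided exact permutation test gave p = 0.1, the smallest that 3 samples against 3 allow (0.4 after Benjamini-Hochberg adjustment over the 4 ratios tested).

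For miR-151a the log2 ratio of 5p to 3p was -9.96, -9.50 and -9.31 with hsa_circ_0098181 and -9.37, -9.46 and -8.78 with the control plasmid. The groups overlapped, and there were 439 to 997 reads of the 3p strand for each read of the 5p strand (with 0.5 added to each count), from the 14 to 27 uncertain counts of miR-151a-5p in a library. The difference was also -0.39 (two-sided exact permutation test, p = 0.4). It was -0.18 without control replicate 3, -0.20 without overexpression replicate 1 and -0.53 without overexpression replicate 3, and lay between -0.53 and -0.18 whichever single library was left out.

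The same ratio was tested with limma for all 135 precursors whose arms each had a mean of at least 10 counts, a test chosen after the values were seen. The difference for miR-28 was -0.39 (standard error 0.16, 95% confidence interval -0.75 to -0.02, unadjusted p = 0.0394, adjusted p = 0.296 from limma), and that for miR-151a was -0.39 (standard error 0.25, adjusted p = 0.605 from limma). Of the 135 precursors, 20 had an unadjusted p under 0.05 (14.8%), 0 passed after adjustment (0%), and 13 had ratios wholly lower with hsa_circ_0098181 (9.63%), miR-28 among them. The median difference over all pairs was -0.03. Without control replicate 3 the difference for miR-28 was -0.34 (adjusted p = 0.328 from limma).

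**Figure D2:**
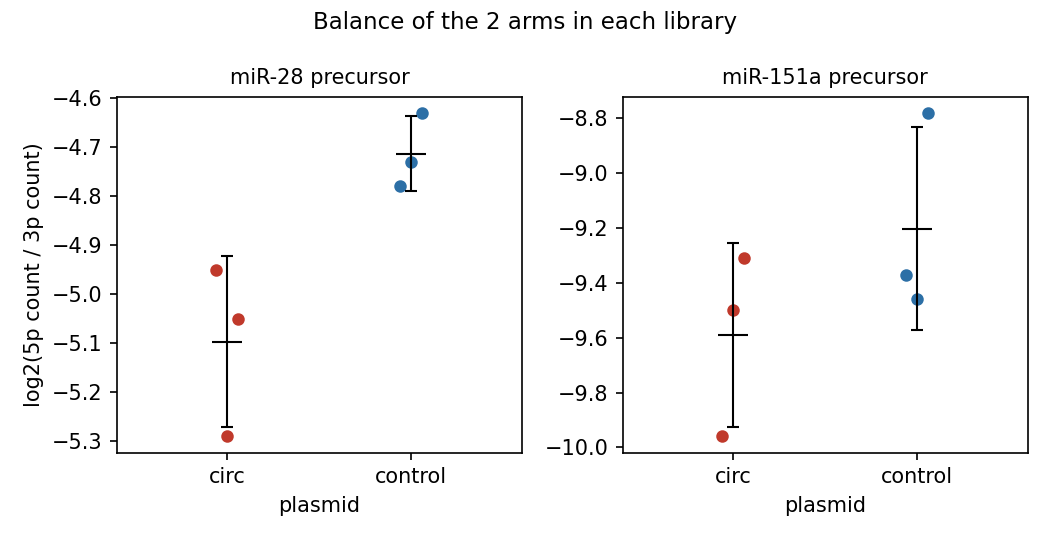
Log2 ratio of the 5p count to the 3p count in each library for the miR-28 and miR-151a precursors, with the mean ± SD (n = 3) in black; the axes differ and do not start at 0. For miR-28 the overexpression samples (-5.29 to -4.95) lie below the control samples (-4.78 to -4.63), while for miR-151a the groups overlap.

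By the counts as deposited, miR-151a was among the precursors with the least 5p strand. By the mean over all libraries it had the 4th lowest ratio of 5p to 3p of the 135 precursors, after miR-148a, miR-29a and miR-148b, and miR-28 had the 16th lowest. The place of miR-151a rests on the uncertain counts of miR-151a-5p, since how the reads it shares with miR-151b were assigned is not known. The 3p strand was the more abundant in 54 of the 135, and the median log2 ratio was 1.42. The log2 ratios of miR-28-5p to miR-708-5p (difference 0.13, two-sided exact permutation test, p = 0.9) and of miR-708-5p to miR-708-3p (difference 0.24, p = 0.8 from the same exact test) rested on single-digit counts in most libraries.

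**Figure D3:**
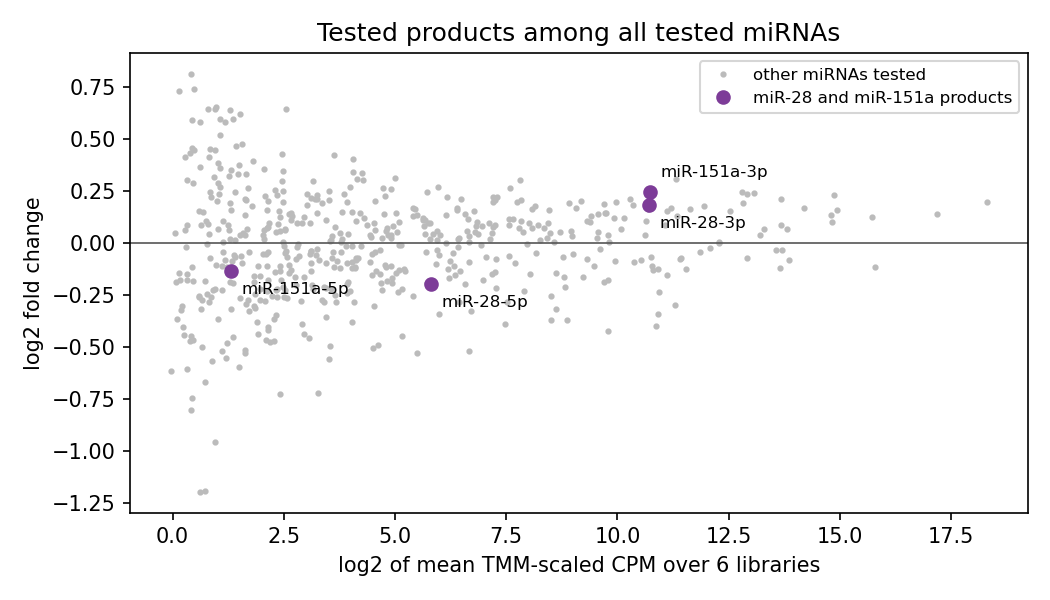
Log2 fold change against the log2 of the mean TMM-scaled CPM for the 552 miRNAs tested, with the 4 tested products in purple. Both 3p strands lie above 0 at a high level, both 5p strands lie below 0 at lower levels, and all 4 lie within the cloud of the other miRNAs.

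The summed level of the 6 members was 3522 ± 89.5 TPM in the overexpression group and 3310 ± 162 TPM in the control group (SD, n = 3), or 0.317% to 0.360% of the counts of a library. The groups overlapped, since control replicate 3 (3488 TPM) was above overexpression replicate 2 (3427 TPM). After TMM scaling the sum was 3618, 3723 and 3658 CPM with hsa_circ_0098181 and 3156, 3172 and 3207 CPM with the control plasmid, and on this scale the groups did not overlap. The difference between the means was 212 in TPM and 488 in TMM-scaled CPM, and the 3p strands make up nearly all of the sum. Without control replicate 3 it was 301 in TPM, and the groups did not overlap. The strands miR-28-5p and miR-708-5p together came to 56.8, 42.4 and 53.6 TPM with hsa_circ_0098181 and 57.3, 62.2 and 70.7 TPM with the control plasmid, nearly all of it miR-28-5p.

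The miRNAs whose pattern over the 6 libraries was most like that of each member were found by the root mean square difference of the log2 CPM (with 1 added), each centred on its own mean, among the 308 miRNAs with a mean of at least 10 CPM. For miR-151a-3p it was miR-628-5p (difference 0.021, with 160 to 167 TPM with hsa_circ_0098181 and 146 to 162 TPM with the control plasmid). For miR-28-3p it was miR-103a-3p (0.029), for miR-28-5p miR-320a (0.061) and for miR-151a-5p let-7c-5p (0.11). The 3p strands of miR-28 and miR-151a differed from each other by 0.058, and miR-28-5p differed from miR-151a-3p by 0.26. None of these neighbours passed the threshold, with log2 fold changes of 0.22, 0.17, -0.18 and -0.16 in the same order (adjusted p of 0.421 to 0.617 from edgeR). Fold changes close to those of the members follow from the choice, which used the same libraries. Without control replicate 3, miR-103a-3p passed at 0.18 (adjusted p = 0.0419 from edgeR), while the adjusted p of the other neighbours was 0.13 to 0.573.

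The long arm of chromosome 8 that holds MIR151A is often gained in liver cancer, and 18 other mature miRNAs from its end (band 8q24) were examined. Of these, 10 had any count, 5 were tested and 0 passed the threshold, with 2 higher and 3 lower and log2 fold changes from -0.45 to 0.14. Without control replicate 3, 2 of the 5 passed (against 9.91% of all miRNAs in that fit), namely miR-30d-5p, which was higher with hsa_circ_0098181, and miR-30b-5p, which was lower. miR-30d-5p, whose precursor lies 5.93 Mb from MIR151A, was at 845 TPM on average in the overexpression group and 835 TPM in the control group (log2 fold change 0.14, adjusted p = 0.698 from edgeR). Without control replicate 3 its log2 fold change was 0.28 (standard error 0.076, adjusted p = 0.0103 from edgeR). Its neighbour miR-30b-5p was at 545 and 660 TPM (log2 fold change -0.17, adjusted p = 0.598 from edgeR), and at -0.28 without that library (standard error 0.078, adjusted p = 0.0128 from edgeR). miR-30d-3p was at 27.4 and 28.3 TPM (log2 fold change 0.06, adjusted p = 0.892 from edgeR), and its sign turned to -0.051 when only library sizes were used for scaling and to -0.09 when control replicate 3 was left out (adjusted p = 0.738 from edgeR). By mean TPM, miR-151a-3p was more abundant than any of the 18.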

How the data were processed

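Total RNA of 6 Huh7 samples was used for miRNA sequencing, and samples were grouped by their labels. The authors deposited counts, the reads assigned to each mature miRNA without normalization, and TPM values, equal to the count scaled by the library total to within 0.00303. The submitters' processing notes list hg38, TopHat2 2.0.9 and Bowtie with no role. Trimming, the miRNA annotation and the assignment of reads shared by several strands are not given in the sources used here, and would change similar strands most.

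Groups were compared on the counts in edgeR 4.0.16 under R 4.3.3 (filterByExpr with a minimum count of 10 and a total of 15, TMM factors, quasi-likelihood test of the group without further terms, two-sided, Benjamini-Hochberg adjustment over all miRNAs tested, threshold 0.05). Ratios used counts with 0.5 added. Ratios of all precursors were fitted with limma 3.58.1, and DESeq2 1.42.0 was an alternative. The tests were tried on simulated data. The members, lists and tests were chosen with earlier results of these data known. Seeds were searched from miR-708-5p alone, as the mature sequences of miR-28-5p and miR-151a-5p were not used here. Names outside the members were the other arm, strands with that seed, the nearest patterns, miRNAs of 8q24 with a mean of at least 10 TPM and the marker lists. miR-148a, miR-29a and miR-148b were named after their values were seen.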

Additional observations from a re-analysis of the deposited data

How the results depend on the processing

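With TMM factors 0 miRNAs passed the threshold. The number was 3 with the library size alone, 6 without a filter on low counts, and 0 to 56 when single samples were dropped (56 when control replicate 3 was). The number of members among them was 0 under every alternative except that without control replicate 3, where it was 1 (a range of 0 to 1), and the causes were not tested. The log2 fold change of miR-151a-3p was 0.21 to 0.28 with a sample left out and 0.13 to 0.25 otherwise, where 0.13 came with the library size alone, which moved the median of all miRNAs tested to -0.11. That of miR-28-3p was 0.065 with the library size alone and 0.16 to 0.19 with a sample left out. That of miR-28-5p was -0.31 with the library size alone and -0.26 to -0.11 with a sample left out. That of miR-151a-5p was -0.27 to 0.067 with a sample left out and -0.26 to -0.11 otherwise, and adding the counts of miR-151b did not alter it, as these were 0. The group difference in the log2 ratio of miR-28-5p to miR-28-3p was -0.46 to -0.29 with a sample left out. That of miR-151a-5p to miR-151a-3p was -0.53 to -0.18 with a sample left out and -0.39 to -0.32 otherwise. That of miR-28-5p to miR-708-5p was -0.06 with an added count of 5 and -0.16 to 0.46 with a sample left out, and that of miR-708-5p to miR-708-3p was -0.17 and -0.41 to 0.75, so that neither had a stable sign at these counts. The summed TPM of the members differed by 212 between the groups, by 488 in TMM-scaled CPM, and by 142 to 301 with a sample left out. For the miRNAs of 8q24, whose alternatives were added after their values were seen, the log2 fold change of miR-30d-3p was 0.06 and turned to -0.051 with the library size alone, to -0.016 when miR-122-5p was also taken out of it, and to between -0.087 and 0.16 with a sample left out. No ratio of miR-151b to miR-151a-5p was computed, as miR-151b was at 0. For miR-708-5p, which the filter removes, the log2 ratio of the mean TPM was -0.46, and -0.69 to -0.23 with a sample left out.

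Same-numbered replicates were not paired, since their deviations from the group means correlated at -0.03, 0.15 and 0.24 over 152 miRNAs. With the replicate block, 0 miRNAs passed (42 unadjusted), and the log2 fold changes were 0.24 for miR-151a-3p, 0.18 for miR-28-3p, -0.20 for miR-28-5p and -0.16 for miR-151a-5p.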

Other observations

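miR-151b was not the only contained strand at 0. Of the 37 mature miRNAs in the table whose RefSeq sequence is identical to, or contained in, that of another miRNA, 24 had no count in any library (64.9%), against 1222 of all 2588 rows (47.2%). Among those with a count, the highest totals were those of miR-365a-3p and miR-365b-3p, which are identical (11389 and 11664 counts). miR-199a-3p and miR-199b-3p followed with 1674 and 854 counts, and the others had totals of 1 to 11. These examples were picked with their values known. miR-151b itself was not among the 37, as its RefSeq sequence was not matched. The 37 included several strands each of miR-519, miR-548 and miR-3689, so that they are not independent. Neither the difference from all rows nor the handling of shared reads was tested.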
